A study of Mus musculus with 16 samples.

Results

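Short-read RNA-Seq of 8 mouse tissues was used to find the genes that marked the lung and those that were low in it. The 2 lung libraries of the deposited gene count table, 1 from fed and 1 from fasting mice, were chosen by their tissue label out of 16 libraries and set against the 14 libraries of the other 7 tissues: kidney, spleen, heart, liver, muscle, and brown and white adipose. The mice were wild-type C57BL/6 males, bought at 12 weeks of age, with 3 mice in the fed group and 3 in the group deprived of food for 24 h. For each tissue the samples of the 3 mice of a group were pooled in equal amounts, so a library stands for 1 pool, and all 8 tissues of a treatment came from the same pool of animals. No tissue had a second library of the same treatment, and the spread used by the tests is that between the fed and the fasting library of a tissue after a treatment effect common to all tissues. Fed and fasting values are printed side by side throughout to show both lung libraries, and no test of fasting against fed lung was made.

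The lung exchanges gas between air and blood across the alveolar wall. Alveolar type 1 cells form the thin gas-exchange surface, alveolar type 2 cells make and recycle surfactant, the phospholipid and protein film that keeps alveoli open, and the airways are lined by ciliated, club, goblet and basal cells that secrete and clear mucus and defence proteins. A dense capillary bed, elastic fibroblasts and resident alveolar macrophages make up much of the rest of the organ. In bulk tissue a higher level can come from more cells of a type or from more RNA per cell, and these cannot be told apart here.

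Levels are given as CPM, counts of a gene per 1000000 counts of the library, where a gene is compared between libraries, and as TPM, which also divides by gene length, where genes are compared with each other. The lung libraries held 30058806 counts (fed) and 36069968 counts (fasting), within a range of 14245178 to 36069968 over the 16 libraries. The label was checked against its markers: Scgb1a1, the secretoglobin of club cells, stood at 13119 CPM in fed lung and 13985 CPM in fasting lung, and Sftpc, the surfactant protein specific to type 2 cells, at 5835 CPM in fed lung and 4848 CPM in fasting lung, while the highest values elsewhere were 40.8 and 13.8 CPM. One library outside the lung stood apart and touched the results. The fasting white adipose library summed to 1065 CPM over 24 ciliated cell genes, where fed white adipose had 69.1 CPM and the remaining 12 non-lung libraries at most 38.4 CPM, and to 750.5 CPM over 8 kidney tubule genes against 69.9 CPM in fed white adipose. Counts of genes higher than each tissue that it moved by over 1.5 times are given with and without it, as are those of several other lists. Genes known from organs near the lung also differed between the 2 lung libraries. The thymic gene Rag1 was at 60.9 CPM fed and 0.776 CPM fasting, the atrial gene Bmp10 at 56.6 CPM fed and 0.0277 CPM fasting, and the squamous keratin Krt4 at 0.133 CPM fed and 14.2 CPM fasting. The part of these in the results was not tested, beyond the values with each lung library left out.

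The first comparison asked which genes set the lung apart from the other tissues together and from each of them. Of 23580 genes tested, 7209 (30.6%) were higher in lung than the mean of the other 7 tissues and 5563 (23.6%) were lower, by edgeR's quasi-likelihood test at a Benjamini-Hochberg adjusted p under 0.05. With total counts in place of TMM scaling factors the split was 12696 higher and 2198 lower, a scaling that moved the median log2 difference of all genes from 0.04 to 0.66. The stricter question was answered by 7 separate contrasts: 988 genes (4.19%) were higher in lung than in each of the other 7 tissues and 290 (1.23%) were lower than in each. A further 1725 genes (7.32%) were higher than in exactly 6 tissues and 1137 (4.82%) lower than in exactly 6. The same count made with another tissue in the lung's place gave 396 genes higher than each for white adipose, 427 for brown adipose, 591 for heart, 1214 for kidney, 1345 for muscle, 1528 for liver and 3156 for spleen, so the lung held the fourth smallest number of the 8.

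Both lung libraries exceeded all 14 others in CPM for 987 of the 988 genes, and for 933 of the 988 the 2 lung values lay within 2-fold of each other. The 988 were chosen from these same values, and the TMM factors of lung (1.508 and 1.425) exceeded those of all tissues but spleen. Both numbers are therefore descriptions. The margin, the lower lung CPM divided by the highest CPM among the other 14 libraries, reached 4-fold for 372 of the 16654 genes with at least 1 CPM in both lung libraries (2.23%). Among the 623 genes higher than each tissue with at least 10 CPM in both lung libraries, the median margin was 2.58-fold, 201 passed 4-fold, 91 passed 10-fold and 23 passed 100-fold. The lower side was shallower. Of 10802 genes with at least 1 CPM in all 14 other libraries, 0 (0%) had both lung values 4-fold or more under the lowest other value. With TMM-scaled CPM, the scaling used by the tests, 272 genes reached the 4-fold margin above and 3 the one below. Protein-coding genes made up 774 of the 988, which was 4.72% of those tested, and 53 were lincRNAs. The tissue with the highest level after lung was white adipose for 433 of the 988 genes, spleen for 224 and kidney for 141, and liver for 21. Leaving out the fasting white adipose library raised the number higher than each tissue to 1252, of which 890 were among the 988. With a single lung library the number was 654 without the fed and 654 without the fasting one, with 639 and 613 shared with the 988.

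**Figure D1:**
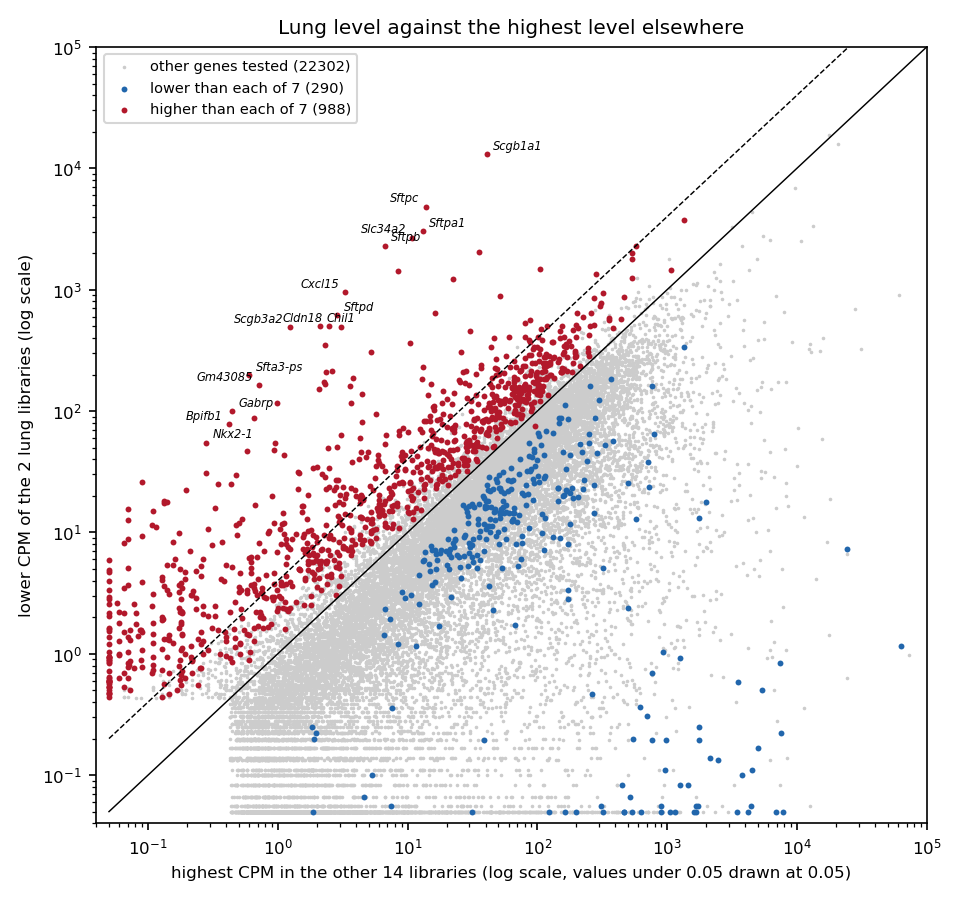
Each point is a gene tested, with the highest CPM among the 14 libraries of other tissues on the horizontal axis and the lower CPM of the 2 lung libraries on the vertical axis, both on log scales. The 988 genes higher than each tissue are in red, the 290 lower than each in blue, the solid line marks equal levels and the dashed line 4-fold, and the 15 genes with the largest margins are named.

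The genes with the largest margins included surfactant proteins of alveolar type 2 cells and secretoglobins of club cells. Scgb3a2, a secretoglobin of the airway, led with 398-fold, followed by Sftpc with 351-fold and Sftpb with 346-fold. Sftpb encodes the surfactant protein required for the surface film and had 2309 CPM in fed lung and 2503 CPM in fasting lung, against 0 to 6.67 CPM (median 2.23) in the other 14 libraries. Behind them came the noncoding Sfta3-ps (331-fold), Scgb1a1 (322-fold), the chemokine Cxcl15 (288-fold), the phosphate transporter Slc34a2 (247-fold), the chitinase-like Chil1 (236-fold) and the collectin Sftpa1 (233-fold). The margins of Gm43085 (226-fold), Gabrp (226-fold), Sftpd (216-fold), Cldn18 (200.1-fold), Nkx2-1 (196-fold) and Bpifb1 (185-fold) completed the 15 widest. The ranking covers genes higher than each tissue with at least 10 CPM in both lung libraries. A gene with 3 counts or fewer in its highest other library was ranked by its bound against a floor of 3 counts. Gm43085 overlaps Cxcl15, and Sfta3-ps overlaps other transcripts beside Nkx2-1, and since the strandedness of the counting is not given in the sources used here, their counts may be shared with those neighbours. In the annotation of GRCm38, Sftpc lies at chr14:70520949-70524081, minus strand, Sftpb at chr6:72304610-72314371, plus strand, Scgb1a1 at chr19:9083636-9087958, minus strand and Nkx2-1 at chr12:56531958-56536908, minus strand. By TPM, which permits comparison between genes, Scgb1a1 was at 81278 in lung (mean of both libraries), Sftpc at 14729, Sftpa1 at 3564 and Sftpb at 3491. Scgb1a1 alone took 1.31% of all counts in fed lung and 1.40% in fasting lung.

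The 23 genes with margins above 100-fold were not at 0 everywhere else. Their median level per 1000 units of the lower lung CPM was 0 in the muscle, liver and white adipose libraries, 2.22 in fed and 3.47 in fasting brown adipose, 1.79 and 2.99 in heart, 1.21 and 1.54 in spleen, and 1.79 and 1.49 in kidney. Since the genes were chosen for a margin above 100-fold, no library could exceed 10 per 1000, and these values are a description. The source of the reads was not tested.

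NKX2-1, FOXA and FOXF proteins are the homeodomain and forkhead factors of lung epithelium and mesenchyme, and RFX factors act with FOXJ1 in ciliated cells. The sequences before the transcription start of 5 lung genes are shown because Sftpb, Sftpa1, Cldn18 and Nkx2-1 were among the 15 genes with the widest margins, and Dynlrb2, a dynein light chain, stands for the ciliary genes that were high together. They are the 250 bases before the start in RefSeq (GRCm38.p6), written 5′ to 3′ on the gene's strand. Capitals mark matches on either strand to CTCAAG (the core bound by NKX2-1), TGTTTNC (the forkhead motif) or GTTNCC (a half-site of RFX factors), and TGTTTCC would match both of the last.
Sftpb (chr6:72304360-72304609, plus strand): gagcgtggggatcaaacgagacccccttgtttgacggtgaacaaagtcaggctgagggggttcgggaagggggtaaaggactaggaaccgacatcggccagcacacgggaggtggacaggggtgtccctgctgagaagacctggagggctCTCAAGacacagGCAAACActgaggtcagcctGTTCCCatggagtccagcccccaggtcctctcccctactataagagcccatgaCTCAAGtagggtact
Sftpa1 (chr14:41131538-41131787, plus strand): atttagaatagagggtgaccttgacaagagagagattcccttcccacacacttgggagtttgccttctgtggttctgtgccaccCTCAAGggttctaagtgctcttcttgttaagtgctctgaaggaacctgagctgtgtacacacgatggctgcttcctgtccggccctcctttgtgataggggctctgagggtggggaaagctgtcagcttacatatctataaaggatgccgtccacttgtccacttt
Cldn18 (chr9:99717268-99717517, minus strand): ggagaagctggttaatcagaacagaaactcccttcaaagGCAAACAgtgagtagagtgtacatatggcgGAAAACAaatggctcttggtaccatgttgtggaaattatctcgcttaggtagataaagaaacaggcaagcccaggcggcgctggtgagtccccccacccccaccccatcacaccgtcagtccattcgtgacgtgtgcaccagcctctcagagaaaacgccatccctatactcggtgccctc
Nkx2-1 (chr12:56536909-56537158, minus strand): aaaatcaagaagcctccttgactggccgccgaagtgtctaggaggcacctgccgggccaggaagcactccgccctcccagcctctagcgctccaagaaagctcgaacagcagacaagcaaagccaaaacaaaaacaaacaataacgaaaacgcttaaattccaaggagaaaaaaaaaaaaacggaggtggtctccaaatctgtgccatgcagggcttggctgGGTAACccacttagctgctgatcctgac
Dynlrb2 (chr8:116504765-116505014, plus strand): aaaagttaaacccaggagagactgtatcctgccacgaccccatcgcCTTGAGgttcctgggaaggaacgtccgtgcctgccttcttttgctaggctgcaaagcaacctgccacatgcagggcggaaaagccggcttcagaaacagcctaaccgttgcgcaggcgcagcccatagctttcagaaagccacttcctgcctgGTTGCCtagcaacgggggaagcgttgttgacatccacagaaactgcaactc

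The Sftpb window held CTCAAG at 100 and at 15 bases before the start, a reverse forkhead match at 88 and a GTTNCC match at 68. Sftpa1 held CTCAAG at 166 bases, this Cldn18 start held reverse forkhead matches at 211 and 181 bases, Nkx2-1 held a reverse GTTNCC match at 28 bases, and Dynlrb2 held GTTNCC at 51 bases and a reverse CTCAAG at 204. Over windows of 300 bases (250 before to 50 after the start), 621 of the 988 genes higher than each tissue had a promoter in the table. CTCAAG was in 15.1% of them against 18% of all 27025 genes, TGTTTNC in 22.2% against 22.8%, and GTTNCC in 54.6% against 48.8%. Among the ciliated cell genes GTTNCC was in 18 of 20 (90%), and CTCAAG was in 5 of 9 club cell genes (55.6%) and 3 of 13 alveolar type 2 genes (23.1%). CTCAAG was also in 25% of ciliated genes, and GTTNCC in 55.6% of club and 38.5% of type 2 genes. TGTTTNC was in 30% of ciliated, 33.3% of club and 30.8% of type 2 genes. For the endothelium of all organs the shares were 18.2% (CTCAAG), 36.4% (TGTTTNC) and 54.5% (GTTNCC). These are matches of letters and not sites of binding.

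Genes of alveolar type 2 cells were higher in lung throughout the list: 16 of 16 exceeded the mean of the other tissues (background 30.6%) and 11 exceeded each of them (background 4.19%), with a median log2 difference of 8.06 (7.93 with genes at the floor set to their bound), against 0.04 for all genes tested. The list summed to 20136 CPM in fed and 19722 CPM in fasting lung, and to at most 2743 CPM in any other library, a kidney one. The 4 surfactant proteins were all among the 11. Sftpc had a log2 difference of at least 11.27 (adjusted p = 8.9e-11) from the mean of the other tissues, where "at least" means that a tissue with 3 counts or fewer in each library was set at 3 counts a library. Sftpa1, a collectin that binds microbes, measured 3045 CPM in fed lung and 4086 CPM in fasting lung against 0 to 13.1 CPM (median 4.09) in the other 14 libraries. Sftpd, the other surfactant collectin, measured 622 CPM in fed lung and 917 CPM in fasting lung and at most 2.88 CPM elsewhere. In all 4 the lung values lay far above every other library, with no overlap. Slc34a2, which takes up the phosphate released from surfactant, had 2687 CPM in fed lung and 2769 CPM in fasting lung and at most 10.9 CPM elsewhere, in kidney. Lamp3, a protein of the lamellar bodies that store surfactant, had 599 CPM fed and 494 CPM fasting, a margin of 160.0-fold, and Chil1 had 568 CPM fed and 498 CPM fasting.

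Other type 2 genes had smaller margins or were shared with another organ. Lpcat1, the acyltransferase that makes the main surfactant lipid, was higher in lung (466 CPM fed and 385 CPM fasting) than in each tissue, with spleen next at up to 109 CPM. The Ets factor Etv5 followed with 205 CPM fed and 198 CPM fasting and a margin of 4.14-fold. Lysozyme 1 (Lyz1) at 235 CPM fed and 157 CPM fasting had white adipose next at up to 63.5 CPM, and its reads may be split with the near-identical Lyz2. Napsa, the aspartic protease that processes surfactant proteins, was at 216 CPM fed and 211 CPM fasting in lung and 1529.7 CPM fed and 1995 CPM fasting in kidney. Hc, complement component 5, was at 939 CPM fed and 626 CPM fasting in lung and 1529 CPM fed and 1060.5 CPM fasting in liver. Abca3, the lipid pump of lamellar bodies, measured 730.3 CPM fed and 718 CPM fasting in lung and 699 CPM fed and 651 CPM fasting in kidney, a margin of 1.03-fold. In CPM the kidney thus exceeded the lung for Napsa and came close for Abca3, and the liver exceeded the lung for Hc. The TMM factors of the fit were larger for lung (1.508 and 1.425) than for kidney (1.072 and 1.034). Scaling by them lowers lung against kidney, so the 1.03-fold for Abca3 holds for CPM alone. Napsa was not called against spleen either (140.4 CPM fed and 168 CPM fasting).

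Alveolar type 1 cell genes showed the same pattern. All 16 were higher than the mean of the other tissues, 11 higher than each and 5 higher than exactly 6, with a median log2 difference of 5.55. Ager, the receptor for advanced glycation end products that type 1 cells carry on their basal side, measured 1435 CPM in fed lung and 1505 CPM in fasting lung against 0.125 to 8.48 CPM (median 3.29) in the other 14 libraries, a log2 difference of 9.14 (SE 0.14, adjusted p = 1.7e-11). Cldn18, a claudin of alveolar tight junctions, measured 582.3 CPM in fed lung and 499 CPM in fasting lung and at most 2.49 CPM elsewhere. Neither gene's lung values overlapped with any other library. Margins were 154-fold for the rhotekin Rtkn2 (352 CPM fed and 501 CPM fasting), 73.4-fold for the water channel Aqp5 (218 CPM fed and 151 CPM fasting), 72.6-fold for the orphan receptor Gprc5a and 39.9-fold for the kinase anchor Akap5. Emp2, a tetraspan membrane protein, had 883 CPM fed and 883 CPM fasting with a margin of 17.2-fold, and the mucin-like Pdpn, also made by lymphatic vessels, had 121 CPM fed and 120.3 CPM fasting with 3.93-fold. The exceptions were genes of the heart and kidney. The homeodomain protein Hopx was at 446 CPM fed and 509 CPM fasting in lung and 217 CPM fed and 137 CPM fasting in heart, and Clic5 at 1245 CPM fed and 1269 CPM fasting in lung and 369.7 CPM fed and 587 CPM fasting in heart. The basement membrane collagens Col4a3 and Col4a4, which pair in the glomerulus and the alveolus, were at 521 CPM fed and 579 CPM fasting and at 233 CPM fed and 245 CPM fasting in lung, and in kidney at 810.3 CPM fed and 579.5 CPM fasting and at 376 CPM fed and 260.0 CPM fasting.

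Club and secretory cell genes were higher in lung than the mean, and some were shared with another tissue. All 14 were higher than the mean and 8 higher than each tissue, with a median log2 difference of 7.77 (7.39 with genes at the floor set to their bound). Scgb1a1 measured 13119 CPM in fed lung and 13985 CPM in fasting lung against 0.0831 to 40.8 CPM (median 16.7) in the other 14 libraries, a log2 difference of at least 11.64 (adjusted p = 6.9e-12). Cbr2, the carbonyl reductase of club cells, measured 2045 CPM in fed lung and 2568 CPM in fasting lung, with white adipose next at up to 35.8 CPM. Bpifa1, a surfactant-like defence protein of the upper airways, was at 212 CPM fed and 861 CPM fasting and Scgb3a1 at 116 CPM fed and 260.1 CPM fasting. Lung values lay more than 2-fold apart in both of these, yet each stayed above all other libraries, with margins of 81.6-fold and 118-fold. The antimicrobial lectin Reg3g (31 CPM fed and 64.3 CPM fasting) had a margin of 111-fold. Cyp2f2, the cytochrome that activates naphthalene in club cells, was exceeded by no tissue in CPM (1795 CPM fed and 1799 CPM fasting) but was not called against liver (1041 CPM fed and 731 CPM fasting, log2 difference -0.15, adjusted p = 0.7). Haptoglobin (Hp), a haemoglobin scavenger, was at 629 CPM fed and 529 CPM fasting in lung and up to 2542 CPM in white adipose, and Cckar, a cholecystokinin receptor, at 70.8 CPM fed and 71.3 CPM fasting in lung and 131 CPM fed and 84.4 CPM fasting in kidney.

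Goblet and basal cell genes divided. Muc5b, the gel-forming mucin of the airway, measured 172 CPM in fed lung and 342 CPM in fasting lung and at most 2.26 CPM elsewhere, a margin of 76.1-fold. Bpifb1, a defence protein co-secreted with it, measured 78.1 CPM fed and 192 CPM fasting and at most 0.421 CPM. Muc5ac, the inducible mucin of goblet cells, was low in lung (2.16 CPM fed and 2.22 CPM fasting) and had 0 counts in the other 14 libraries, at least 10.3-fold against a floor of 3 counts. Basal cell genes were low: Krt5 stood at 1.3 CPM fed and 1.05 CPM fasting, and Trp63, the p53 relative that maintains basal cells, at 1.53 CPM fed and 2.25 CPM fasting, below muscle at 9.05 CPM fed and 14.4 CPM fasting. Of the 10 genes, 5 were higher than each tissue, 2 without the fasting lung library and 5 without the fed one.

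The counts of motile cilium genes depended on 1 library outside the lung. All 24 were higher in lung than the mean (median log2 difference 6.25, 5.21 with floored genes at their bound), but 2 were higher than each tissue and 17 were higher than exactly 6. Without the fasting white adipose library 22 of the 24 were higher than each. The sum over the list was 1274 CPM in fed and 1276 CPM in fasting lung. Foxj1, the master factor of motile cilia, was at 92.2 CPM fed and 120.2 CPM fasting in lung, 1.76 CPM in fed and 126 CPM in fasting white adipose, and the other 12 libraries lay below. The fasting white adipose library thus overlapped with lung for Foxj1 and the fed one did not. Outer arm dyneins behaved alike: Dnah5 had 216 CPM fed and 220.5 CPM fasting in lung and 3.26 CPM fed and 195 CPM fasting in white adipose, and Dnah9 had 103 CPM fed and 106 CPM fasting in lung and 2.49 CPM fed and 112 CPM fasting in white adipose. The central pair gene Hydin had 87 CPM fed and 86.6 CPM fasting in lung and 1.2 CPM fed and 95.4 CPM fasting in white adipose. Tppp3, a tubulin polymerising protein, was higher than each tissue in the full data with 277 CPM in fed lung and 203 CPM in fasting lung and a margin of 3.98-fold, as was 1110017D15Rik with 8.65 CPM fed and 8.79 CPM fasting and 1.87-fold.

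Left out in turn, neither lung library changed the number higher than each tissue for type 2 (11), type 1 (11) or club cell genes (8), and for the ciliated list it became 1 without fed and 4 without fasting lung. Pulmonary neuroendocrine genes were higher than the mean for 4 of 7 tested (background 30.6%) and higher than each tissue for 0 (background 4.19%). Fewer were higher than the mean with either lung library left out. The list summed to 10 and 10.8 CPM in lung. Epithelial junction and keratin genes were higher than the mean for 17 of 20 and higher than each for 3.

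**Figure D2:**
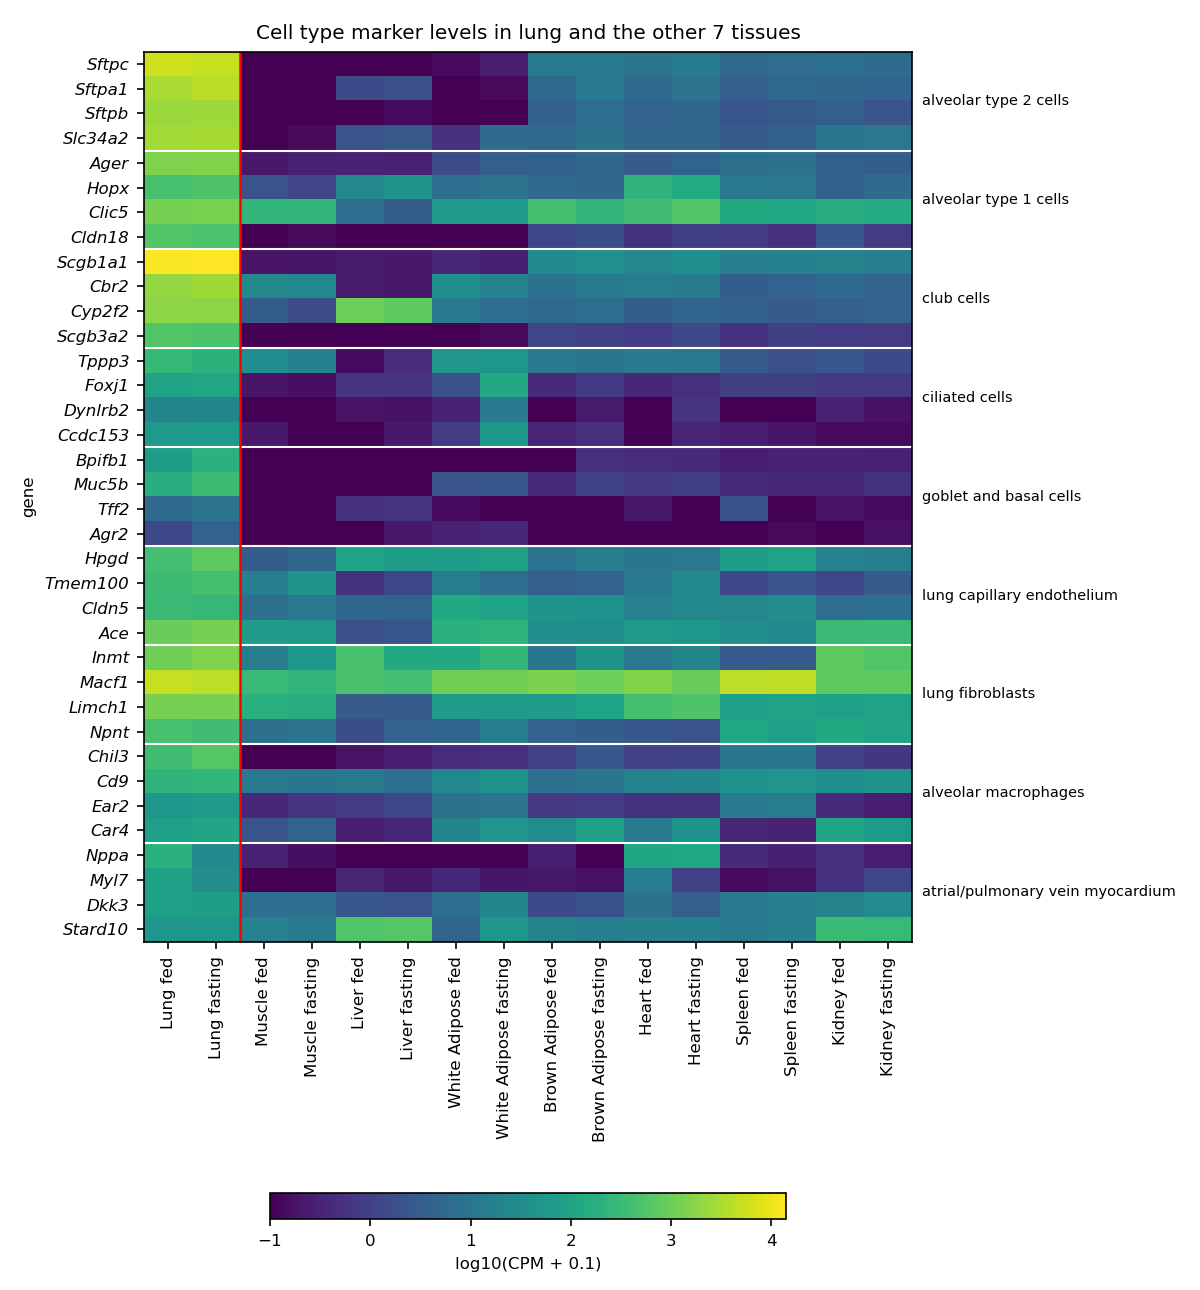
Heat map of log10(CPM + 0.1) for the 4 members with the highest TPM in lung of each of several marker lists (rows) in the 2 lung libraries, left of the red line, and the 14 others (columns). Most epithelial rows are brightest in the lung columns, while Cyp2f2 is also bright in liver, Hopx and Clic5 in heart, and the ciliated cell rows in fasting white adipose.

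Most airway defence proteins were higher in lung than the mean. Of 22 tested out of 25 listed, 20 were higher than the mean, 1 lower and 15 higher than each, with a median log2 difference of 7.14 (6.02 with floored genes at their bound). Lyz2, the lysozyme of macrophages and type 2 cells, measured 4121 CPM in fed lung and 3737 CPM in fasting lung, with spleen next at up to 1350.5 CPM. Wfdc2, a whey acidic protein secreted by airway epithelium, measured 407 CPM fed and 444 CPM fasting with kidney next at up to 60.8 CPM. The membrane mucin Muc1 (160.0 CPM fed and 136 CPM fasting) had a margin of 9.51-fold, the mucin Muc4 (31.3 CPM fed and 33.3 CPM fasting) 21.7-fold, the acidic chitinase Chia1 (63.1 CPM fed and 51 CPM fasting) 17.7-fold and the iron-binding lactoferrin Ltf (37.2 CPM fed and 132 CPM fasting) 6.17-fold. Members that lung did not exceed everywhere were Pigr, the transporter of IgA, at 68.1 CPM fed and 60.7 CPM fasting in lung and 1492 CPM fed and 1153 CPM fasting in liver, and Lcn2, a siderophore binder, at 67.3 CPM fed and 74.2 CPM fasting in lung and up to 108 CPM in fasting white adipose. Complement C3 was not called against the mean (659.9 CPM fed and 724 CPM fasting, log2 difference -0.07, adjusted p = 0.71). Cfb, complement factor B, was the member that was lower, at 0.699 CPM fed and 1.03 CPM fasting, a log2 difference of -1.33 (SE 0.43, adjusted p = 0.021); with total counts its difference was -0.72, and no member of the list was lower then or without the fed lung library.

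Transcription factors known from lung development and epithelium were mostly higher in the adult lung. Of 40 listed, 36 were higher than the mean, 9 higher than each (12 without the fasting white adipose library) and 16 higher than exactly 6, with a median log2 difference of 3.91 (3.23 with floored genes at their bound). Nkx2-1, the homeodomain factor of lung and thyroid, measured 59.2 CPM in fed lung and 55 CPM in fasting lung against 0 to 0.281 CPM (median 0) in the other 14 libraries, a log2 difference of at least 8.04 (adjusted p = 1.4e-07). Foxf1, the forkhead factor of lung mesenchyme and capillaries, measured 212 CPM in fed lung and 215 CPM in fasting lung against 0.097 to 2.37 CPM (median 0.599) in the other 14 libraries, a log2 difference of 7.70 (SE 0.13, adjusted p = 2.3e-11). The lung values of both overlapped with no other library. Foxf1 lies beside the noncoding Fendrr on the opposite strand, so reads of the overlap could be assigned to either. Epas1, the hypoxia-inducible factor of endothelium, measured 2024 CPM fed and 2572 CPM fasting with a margin of 3.77-fold. The T-box genes of lung mesenchyme followed, Tbx2 at 229 CPM fed and 242 CPM fasting with kidney next at up to 61.9 CPM, and Tbx4 at 80.5 CPM fed and 97.6 CPM fasting with a margin of 18.2-fold. Of the epithelial factors, Sox2, of the proximal airway, had 11.5 CPM fed and 13.4 CPM fasting and a margin of at least 54.7-fold, Klf5 43.8 CPM fed and 53.5 CPM fasting and 7.37-fold, and Elf5 22.8 CPM fed and 20.2 CPM fasting and 6.66-fold.

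The factors shared with other endodermal or mesodermal organs were not higher than each tissue. The pioneer factors Foxa2 and Foxa1 were at 41.4 CPM fed and 36.8 CPM fasting and at 24.1 CPM fed and 20.6 CPM fasting in lung, and in liver at 43.9 CPM fed and 18.9 CPM fasting and at 30.1 CPM fed and 16.6 CPM fasting, so the ranges overlapped. Tbx5, the T-box factor of heart and lung, was at 52 CPM fed and 57.7 CPM fasting in lung and 35 CPM fed and 38.3 CPM fasting in heart, and Hoxa5 at 26.8 CPM fed and 23.9 CPM fasting in lung and 23.3 CPM fed and 22.3 CPM fasting in brown adipose. Sox9, a factor of cartilage and of the embryonic lung tip, was lower in lung than the mean of the others at 0.532 CPM fed and 0.527 CPM fasting, a log2 difference of -2.14 (SE 0.41, adjusted p = 0.001). Cebpa, Stat3 and Id2 were not called against the mean, with log2 differences of 0.24, 0.25 and 0.17 and adjusted p of 0.45, 0.16 and 0.57.

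Genes that make and recycle surfactant lipid were mostly shared with another tissue. Of 20 tested, 15 were higher than the mean, 2 lower (1 with either lung library left out) and 4 higher than each, with a median log2 difference of 2.03. The 4 were Slc34a2, Lpcat1, the fatty acid elongase Elovl1 (249.3 CPM fed and 146 CPM fasting, margin 2.18-fold) and the peroxisomal oxidase-like Acoxl (69.1 CPM fed and 48 CPM fasting, margin 51.8-fold). Scd2, a stearoyl-CoA desaturase, was at 937 CPM fed and 857 CPM fasting in lung and 572 CPM fed and 40.7 CPM fasting in brown adipose. Lpin1, the phosphatidate phosphatase of triglyceride synthesis, was lower in lung at 73.4 CPM fed and 142 CPM fasting against 57.3 to 1112 CPM (median 321) in the other 14 libraries, a log2 difference of -2.22 (SE 0.35, adjusted p = 2.6e-04). Pcyt1a, the rate-limiting enzyme of phosphatidylcholine synthesis, was also called lower than the mean (124 CPM fed and 125 CPM fasting, log2 difference -0.42), but with total counts the difference was 0.21.

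Ion and fluid transport genes are listed because alveoli and airways are kept moist by sodium uptake and chloride secretion. Of 19, 16 were higher than the mean and 7 higher than each tissue (8 without the fasting white adipose library). The epithelial sodium channel subunits were at 215 CPM fed and 323 CPM fasting for Scnn1a, 133 CPM fed and 140.3 CPM fasting for Scnn1b and 157 CPM fed and 160.2 CPM fasting for Scnn1g, with kidney next at up to 84.7, 48.2 and 44.6 CPM. All 3 subunits were above all 14 other libraries in both lung libraries, and Scnn1a was not called against kidney. The amino acid transporter Slc6a14 (87.3 CPM fed and 109 CPM fasting) had a margin of 132-fold, the chloride transporter Slc26a9 (58.5 CPM fed and 54.1 CPM fasting) 57.1-fold and the potassium channel subunit Kcne2 (17.6 CPM fed and 19.8 CPM fasting) at least 83.7-fold. Aqp1, the capillary water channel, was at 579 CPM fed and 599 CPM fasting in lung and 773 CPM fed and 839.9 CPM fasting in kidney. Cftr, the chloride channel mutated in cystic fibrosis, was at 14 CPM fed and 13.1 CPM fasting in lung, 2.92 CPM in fed and 18.8 CPM in fasting white adipose.

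Genes of drug and aldehyde metabolism were high in lung as well as in liver and kidney. Of 24, 21 were higher than the mean, 2 lower and 5 higher than each (8 with total counts), and the list summed to 9974 CPM in fed and 13862 CPM in fasting lung against 13792 and 13894 CPM in liver. Besides Cbr2, the members higher than each included the cytochromes Cyp2b10 (215 CPM fed and 483 CPM fasting, margin 2.92-fold) and Cyp2s1 (114 CPM fed and 109 CPM fasting, 6.88-fold), and the aldehyde dehydrogenase Aldh3a1 (33.9 CPM fed and 36.8 CPM fasting, 18.3-fold). Fmo2, the main flavin monooxygenase of mouse lung, was at 870.2 CPM fed and 1955 CPM fasting in lung and 503 CPM fed and 784 CPM fasting in kidney. Cyp4b1, a fatty acid hydroxylase, was at 558 CPM fed and 929 CPM fasting in lung and 3882 CPM fed and 3207 CPM fasting in kidney, the higher organ in both libraries. Aldh1a1, which makes retinoic acid, was at 991 CPM fed and 1334 CPM fasting in lung and 1397 CPM fed and 1079 CPM fasting in liver. Cyp2e1, the ethanol-inducible cytochrome, was lower in lung (16.4 CPM fed and 45.6 CPM fasting) than the mean, a log2 difference of -3.38 (SE 0.34, adjusted p = 8.7e-06). Cyp1b1, the other member that was lower, had a difference of -0.89, or -0.25 with total counts, and 1 member was lower without the fasting lung library.

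Endothelial genes were higher in lung than in every other tissue for most of the list. All 18 genes shared by the endothelium of all organs were higher than the mean and 13 were higher than each tissue, with a median log2 difference of 1.996. Their sum was 7541 CPM in fed and 7901 CPM in fasting lung, against 417 to 2250.2 CPM elsewhere, highest in fed white adipose. Pecam1, the adhesion molecule of endothelial junctions, measured 737 CPM in fed lung and 769 CPM in fasting lung against 25.1 to 303 CPM (median 159) in the other 14 libraries, a log2 difference of 2.03 (SE 0.11, adjusted p = 7.1e-08). Cdh5, the endothelial cadherin, measured 857 CPM fed and 776 CPM fasting with a margin of 2.51-fold, Vwf, the clotting factor carrier, 643 CPM fed and 886 CPM fasting with 2.47-fold, and Tek, the angiopoietin receptor, 470.4 CPM fed and 481 CPM fasting with 4.44-fold. Calcrl, the receptor for adrenomedullin, stood out with 1478 CPM in fed lung and 1545 CPM in fasting lung against 22.2 to 106 CPM (median 38) in the other 14 libraries, a log2 difference of 4.55 (SE 0.09, adjusted p = 3.7e-11). Its partner Ramp2 had 177 CPM fed and 306 CPM fasting and a margin of 3.39-fold, and Clec14a 460.5 CPM fed and 578 CPM fasting and 15.1-fold.

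Genes known from lung capillaries were tested as a separate list. Of 19, 17 were higher than the mean, 1 lower and 10 higher than each, with a median log2 difference of 3.51. The incretin receptor Glp1r measured 414 CPM in fed lung and 305 CPM in fasting lung and at most 5.25 CPM elsewhere, a margin of 58-fold. Prx, a scaffold protein otherwise known from myelinating cells, had 233 CPM fed and 309 CPM fasting (17.6-fold), Tmem100, a target of endothelial BMP signals, 338 CPM fed and 423 CPM fasting (7.72-fold), and Hpgd, which breaks down prostaglandins, 404 CPM fed and 722 CPM fasting (4.01-fold). Ace, angiotensin converting enzyme, measured 934 CPM fed and 1217 CPM fasting in lung with kidney next at up to 321 CPM, and the endothelin receptor Ednrb 138 CPM fed and 185 CPM fasting with a margin of 1.35-fold. Carbonic anhydrase 4 (Car4), a capillary marker also made in the kidney tubule, was at 84 CPM fed and 103 CPM fasting in lung and up to 103 CPM in kidney. The apelin receptor Aplnr was at 112 CPM fed and 54.2 CPM fasting in lung and 74.6 CPM fed and 18.4 CPM fasting in heart. Sostdc1, a BMP antagonist, was the member that was lower, at 0.432 CPM fed and 0.139 CPM fasting, a log2 difference of -1.67 (SE 0.38, adjusted p = 0.0031), and 0 members were lower without the fasting lung library.

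Genes that set pulmonary vascular tone, several of them mutated in hereditary pulmonary hypertension, included 10 of 27 higher than each tissue and 24 higher than the mean. The BMP type 2 receptor Bmpr2 measured 1354 CPM in fed lung and 1627 CPM in fasting lung against 90.8 to 285 CPM (median 205) in the other 14 libraries, and its endothelial partner Acvrl1 690.4 CPM fed and 533 CPM fasting with a margin of 6.64-fold. The nitric oxide receptor, soluble guanylate cyclase, was high in both subunits, Gucy1a1 at 377 CPM fed and 368 CPM fasting (4.21-fold) and Gucy1b1 at 185 CPM fed and 181 CPM fasting (7.25-fold). The constrictor endothelin 1 (Edn1) was at 24.6 CPM fed and 41.3 CPM fasting with a margin of 1.48-fold. The endothelial synthase Nos3 was not called against the mean (29.6 CPM fed and 31.5 CPM fasting, log2 difference 0.06, adjusted p = 0.82). The potassium channel Kcnk3 was at 28.9 CPM fed and 31.5 CPM fasting in lung and 315 CPM fed and 457 CPM fasting in brown adipose. Without the fasting white adipose library the count higher than each was 8, and with total counts 15.

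**Figure D3:**
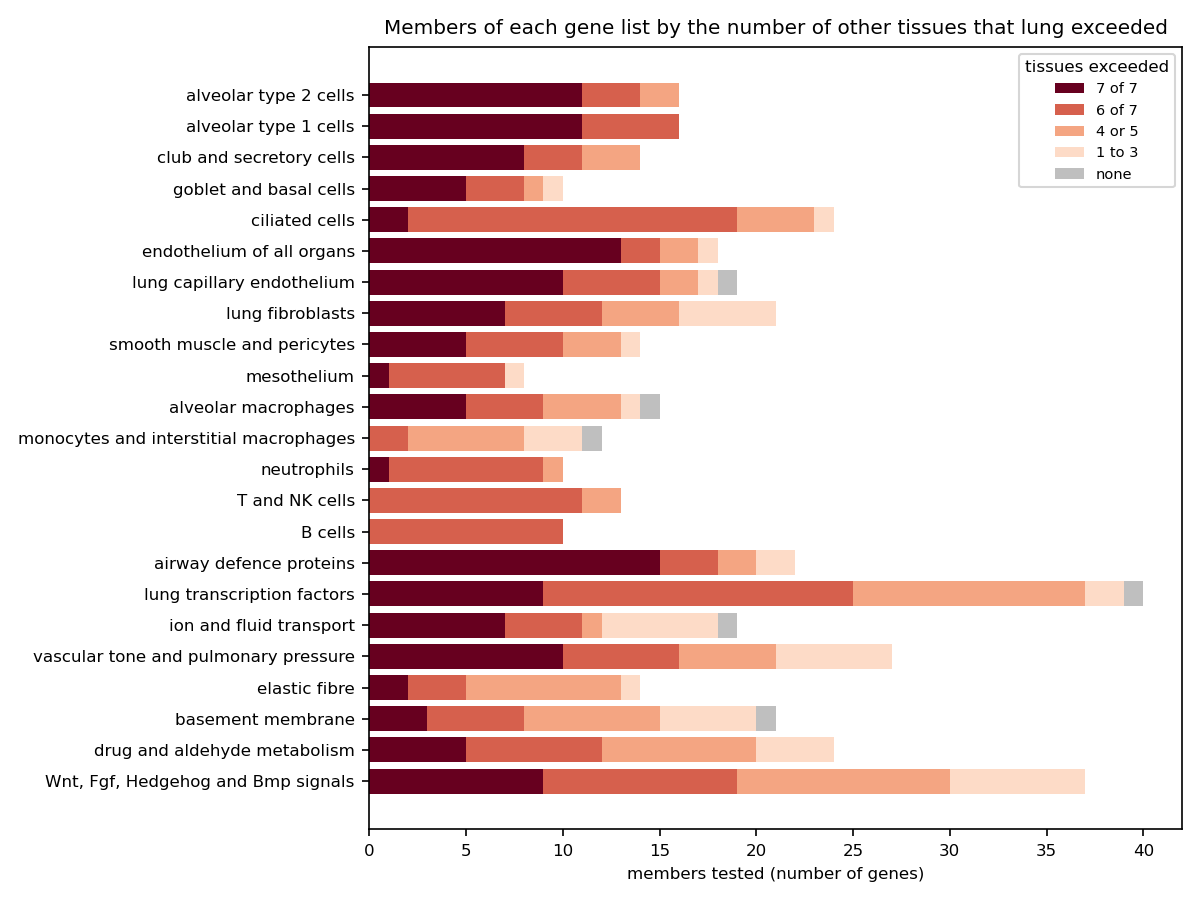
For each cell type and pathway list, the bar gives the number of members tested, divided by the number of other tissues (7, 6, 4 or 5, 1 to 3, or none) that lung exceeded. Alveolar type 1 and 2, defence and endothelial lists are mostly at 7 tissues, the ciliated list mostly at 6, and the B and T cell lists have no member at 7.

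Stromal genes were mixed. Of 21 fibroblast genes, 18 were higher than the mean and 7 higher than each tissue. The list count fell to 3 without the fed and 5 without the fasting lung library, and was 9 without the fasting white adipose library. Itga8, the integrin of alveolar fibroblasts, measured 417 CPM in fed lung and 402 CPM in fasting lung with a margin of 8.7-fold, and its ligand nephronectin (Npnt) 441 CPM fed and 372 CPM fasting with 2.82-fold. Col13a1, a membrane collagen of alveolar fibroblasts, had 62.5 CPM fed and 45.7 CPM fasting (5.05-fold), and Pdgfra, the receptor of alveolar myofibroblast precursors, 427 CPM fed and 559 CPM fasting (1.71-fold). Inmt, an indole methyltransferase, was at 1080.3 CPM fed and 1419 CPM fasting in lung and up to 730.0 CPM in kidney. The proteoglycan Dcn, the lysophospholipase Enpp2 and the collagen Col14a1 were called lower than the mean with log2 differences of -0.82, -0.80 and -0.48. Without the fed lung library 1 gene of the list was lower and without the fasting one 2, and with total counts 0 genes of the list were lower (differences of -0.19, -0.18 and 0.15).

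Of 14 pericyte and smooth muscle genes, 13 were higher than the mean and 5 higher than each tissue (3 without the fed and 2 without the fasting lung library). The pericyte genes Cox4i2 (32.2 CPM fed and 28.3 CPM fasting) and Higd1b (20.2 CPM fed and 24.2 CPM fasting) had margins of 5.01-fold and 3.35-fold, and the smooth muscle calponin Cnn1 (43.2 CPM fed and 43.7 CPM fasting) 4.54-fold. Desmin (Des) was at 137 CPM fed and 136 CPM fasting in lung and not called against the mean (log2 difference -0.30, adjusted p = 0.25). Of 14 elastic fibre genes, 13 were higher than the mean and 2, the microfibril proteins Mfap4 (133 CPM fed and 102 CPM fasting, margin 6.44-fold) and Mfap2 (19.6 CPM fed and 28.2 CPM fasting, 4.41-fold), higher than each. Elastin itself (Eln) was at 181 CPM fed and 204 CPM fasting in lung and 145 CPM fed and 212 CPM fasting in white adipose. In the basement membrane list, 3 of 21 were higher than each (5 with total counts and 2 with either lung library left out), among them Npnt and the epithelial laminin chain Lama3 (317 CPM fed and 260.4 CPM fasting, 2.51-fold). Of 8 mesothelial genes, 6 were higher than exactly 6 tissues, with white adipose as the exception for Msln, Upk3b, Upk1b, Lrrn4 and Rspo1. The sum of the list was 361 CPM in fed and 345 CPM in fasting lung, and 277 and 370.4 CPM in white adipose.

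Ligands and receptors of the Wnt, Fgf, Hedgehog and Bmp pathways, which pattern the branching lung, were still measurable in the adult. Of 37, 31 were higher than the mean, 2 lower and 9 higher than each, which became 12 without the fasting white adipose library and 14 with total counts. The ligands higher than each included Bmp6 (173 CPM fed and 156 CPM fasting, margin 2.45-fold), Bmp5 (92.7 CPM fed and 85 CPM fasting, 5.08-fold), Bmp3 (103 CPM fed and 82.3 CPM fasting, 2.19-fold) and Fgf7 (18.6 CPM fed and 22.1 CPM fasting, 4.11-fold). Wnt3a measured 18.8 CPM in fed lung and 15.6 CPM in fasting lung and at most 0.0702 CPM elsewhere, and Shh, the hedgehog ligand of airway epithelium, 5.89 CPM fed and 5.18 CPM fasting and at most 0.446 CPM. Wnt7a (13.8 CPM fed and 6.52 CPM fasting) had spleen next at up to 3.66 CPM, and the EGF receptor ligand Areg (4.89 CPM fed and 3.99 CPM fasting) at most 0.0442 CPM elsewhere. Fgfr2, the epithelial receptor of Fgf7 and Fgf10, measured 297 CPM fed and 256 CPM fasting with 3.9-fold. Wnt2 (15.9 CPM fed and 8.46 CPM fasting) and the hedgehog antagonist Hhip (56 CPM fed and 63.9 CPM fasting) were higher than 6 tissues and not called against liver. Fgf10, the mesenchymal signal of branching, was at 9.05 CPM fed and 10.5 CPM fasting in lung and 38.1 CPM fed and 20.2 CPM fasting in white adipose. Lgr4, the R-spondin receptor, was lower than the mean at 12.4 CPM fed and 15.9 CPM fasting, a log2 difference of -2.89 (SE 0.20, adjusted p = 4.6e-07), with only spleen (6.58 CPM fed and 9.16 CPM fasting) below it in CPM.

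Alveolar macrophage genes were higher than each tissue for 5 of 15 and higher than the mean for 13. Chil3, a chitinase-like protein of alveolar macrophages, measured 361 CPM in fed lung and 626 CPM in fasting lung with spleen next at up to 10.5 CPM, a margin of 34.3-fold, though reads may be shared with its near copy Chil4. Siglecf, the sialic acid receptor of alveolar macrophages and eosinophils, had 16.5 CPM fed and 19.2 CPM fasting and a margin of 10.7-fold. The ribonuclease genes Ear1 (12.9 CPM fed and 21.5 CPM fasting) and Ear2 (49.3 CPM fed and 67.7 CPM fasting) had margins of 24.4-fold and 3.41-fold and are near-identical copies too. Marco, a scavenger receptor that spleen macrophages also carry, was at 8.18 CPM fed and 11.5 CPM fasting in lung and 148 CPM fed and 247 CPM fasting in spleen. The C1q chains of interstitial macrophages were lower than the mean, with log2 differences of -1.02 (C1qa), -1.10 (C1qb) and -1.11 (C1qc), or -0.39, -0.47 and -0.48 with total counts.

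Other leukocyte lists differed in their highest tissue, which was spleen for B, T and NK cells and monocytes. All 10 B cell genes were higher than exactly 6 tissues and not higher than spleen, with sums of 334 and 163 CPM in lung and 5949 and 5418 CPM in spleen. Of 13 T and NK cell genes 11 were higher than exactly 6, with sums of 142 and 56.1 CPM in lung and 564 and 550.2 CPM in spleen. Neutrophil genes overlapped with spleen: sums were 189 and 227 CPM in lung and 203 and 142 CPM in spleen, with 1 of 10, Ltf, higher than each. Of 12 genes of monocytes and interstitial macrophages, 8 were higher than the mean (background 30.6%) and 3 lower, near the background of 23.6%. By edgeR's test 0 were higher than each. Their sums were 500.0 and 308 CPM in lung, 603 and 546 CPM in white adipose and 1580.2 and 1815 CPM in spleen. Of 9 tested genes of innate lymphoid cells, mast cells and basophils, 2 were higher than each, Areg and Hdc (1 without the fed lung library), with sums of 119 and 77.1 CPM in lung and at most 61 CPM elsewhere. Hdc, the histamine-making enzyme, was at 92.9 CPM fed and 57.8 CPM fasting, a margin of 1.93-fold. Of 10 erythroid genes 8 were higher than the mean, and the list summed to 3327 and 3287 CPM in lung and 3872 and 9410.5 CPM in spleen, and globin reads may be split between copies.

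**Figure D4:**
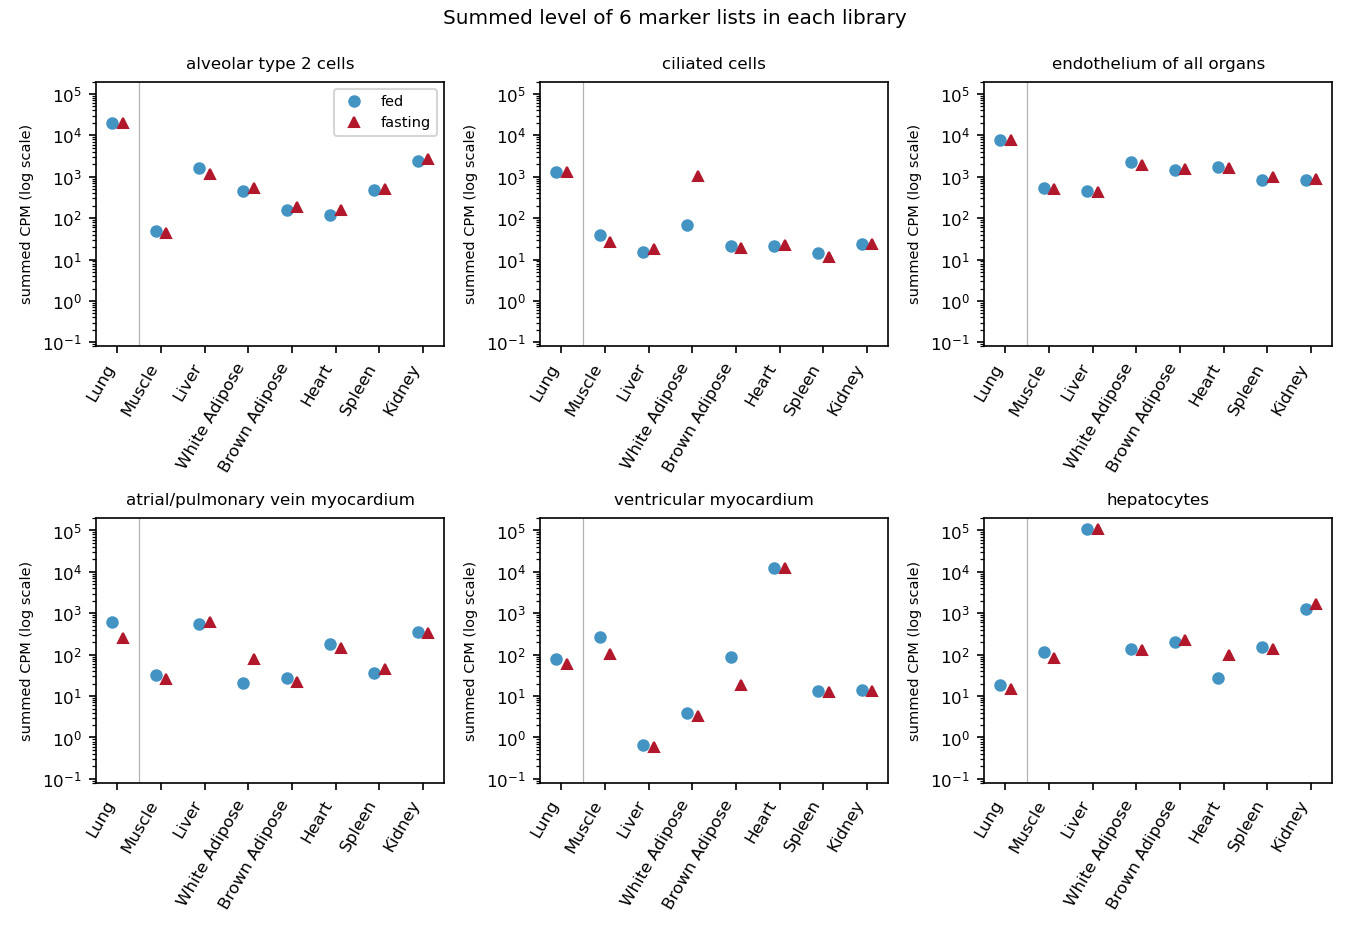
Summed CPM (log scale) of 6 marker lists in each of the 16 libraries, with circles for fed and triangles for fasting. Both lung points are the highest for alveolar type 2 cells and endothelium, the ciliated list is also high in fasting white adipose, ventricular genes are at most 77.9 CPM in lung against 12427 CPM in fasting heart, and hepatocyte genes are lowest in lung.

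The 1725 genes higher than exactly 6 tissues were divided by the remaining tissue, the one that lung was not called higher than. Shared here means only that missing call, and the level in lung could be lower, similar or higher without being called. The remaining tissue was spleen for 743 genes (of which 492 were lower in lung than in spleen), white adipose for 398, kidney for 223, heart for 142, liver for 122, muscle for 59 and brown adipose for 38. With spleen the lung shared the actin-binding thymosin Tmsb4x (1335 CPM fed and 1068 CPM fasting in lung, 2064 CPM fed and 1944 CPM fasting in spleen), the GPI-anchored Ly6e and the cytoskeletal linker Macf1. Kidney shared Cyp4b1, Fmo2 and the GPI-anchored Ly6a (198 CPM fed and 255 CPM fasting in lung, 351 CPM fed and 263 CPM fasting in kidney), and liver shared Cyp2f2, Aldh1a1 and the ribonuclease Rnase4 (343 CPM fed and 395 CPM fasting, 543 CPM fed and 489.9 CPM fasting in liver). With white adipose it shared the caveolar protein Cavin2 (761 CPM fed and 973 CPM fasting, 600.4 CPM fed and 686 CPM fasting in white adipose), thrombomodulin (Thbd) and Igfbp6. Heart shared Hopx, the matricellular Sparcl1 (619.7 CPM fed and 775 CPM fasting, 356 CPM fed and 269 CPM fasting in heart) and the integrin chain Itgb1. The genes that were not higher than muscle alone included the transcription factor Jun and the lipid flippase Atp8a1, which were not called against it, and the LIM protein Fhl1 (508 CPM fed and 585 CPM fasting, 560.1 CPM fed and 420.4 CPM fasting in muscle), whose CPM overlapped between the 2 tissues. The fit called Fhl1 lower than muscle with TMM factors (log2 difference -1.26, adjusted p = 0.023 by edgeR's quasi-likelihood test) and lower than no tissue with total counts. The genes not called against brown adipose alone included Scd2, the Rac activator Prex2 (778 CPM fed and 847 CPM fasting, 347 CPM fed and 777 CPM fasting in brown adipose) and the matrix protein Postn. Of the 398 genes that failed against white adipose alone, 180 had at least 4 times the CPM in the fasting library as in the fed one and 1 the reverse, and 199 became higher than each tissue without the fasting library.

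The second comparison asked which genes were lower in lung than in each tissue. Of the 290, 157 had at least 10 CPM in all 14 other libraries, and 273 of the 290 were protein coding. Without the fed lung library 133 genes were lower than each, 127 of them among the 290, and without the fasting lung library 85, of which 83 were among them. These calls leaned on the TMM factors, which were 1.508 and 1.425 for lung and 0.554 and 0.524 for muscle: both lung CPM were below all 14 others for 116 of the 290, and with total counts 96 genes were lower than each, 79 of them among the 290. The lowest other level was in muscle for 131 of the 290 genes, liver for 69 and heart for 44. Coq8a, a kinase-like protein of coenzyme Q synthesis, was farthest below, at 17.8 CPM in fed lung and 18.7 CPM in fasting lung against 32.1 to 1985 CPM (median 258) in the other 14 libraries, a log2 difference of -4.22 (SE 0.40, adjusted p = 5.5e-06). Its 2 lung values lay below every other library. Abcc9, a subunit of ATP-sensitive potassium channels, had 23.8 CPM fed and 28.9 CPM fasting against at least 46.6 CPM elsewhere, and Slc40a1, the iron exporter ferroportin, 14.2 CPM fed and 12.9 CPM fasting against at least 18.8 CPM.

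The 15 lowest by margin also included the mitochondrial protein C1qbp (15.4 CPM fed and 12.5 CPM fasting against at least 22.9 CPM), the mitoribosomal Mrps18b (7.62 CPM fed and 7.51 CPM fasting against 11.1 CPM), Mrpl45 (14.8 CPM fed and 14 CPM fasting against 21 CPM) and Mrpl30 (24.3 CPM fed and 23.4 CPM fasting against 33.4 CPM), and the lipid carrier Stard7 (64.7 CPM fed and 67.9 CPM fasting against 88.7 CPM). Tmem69, Flad1, which makes the cofactor FAD, Grhpr, which reduces glyoxylate, the pseudokinase Stradb and the scaffold Mpp6 had log2 differences of -1.74, -1.86, -2.79, -1.92 and -2.29 from the mean, each with both lung values under the lowest other value. Gapdh was also among them (18.9 CPM fed and 14.6 CPM fasting against at least 26.9 CPM), but it has many processed pseudogene copies, which makes its counts uncertain.

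Pathways of oxidative metabolism were low in lung together. All 20 genes of the tricarboxylic acid cycle were lower than the mean (background 23.6%), 18 were lower than exactly 6 tissues (background 4.82%) and 1, Idh3g, lower than each. The median log2 difference was -2.44, or -1.81 with total counts, under which all 20 remained lower than the mean. The list summed to 1868 and 1730.0 CPM in lung, 1707 and 1649.7 CPM in spleen and up to 30561 CPM in brown adipose, so lung and spleen were the 2 lowest tissues. Citrate synthase (Cs) measured 146 CPM in fed lung and 117 CPM in fasting lung against 101 to 2474 CPM (median 369) in the other 14 libraries, a log2 difference of -2.40 (SE 0.21, adjusted p = 2.3e-06). The isocitrate dehydrogenase subunit Idh3g had 65.6 CPM fed and 64.8 CPM fasting and a log2 difference of -2.24 (SE 0.15, adjusted p = 3.1e-07). In CPM both liver libraries (49.6 CPM fed and 59 CPM fasting) lay below both lung libraries for Idh3g.

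Beta-oxidation of fatty acids followed. Of 20 genes 19 were lower than the mean and 16 lower than exactly 6 tissues, with a median log2 difference of -2.61 (-1.98 with total counts). The list summed to 1174 and 1492 CPM in lung and to 815 and 1009 CPM in spleen, the tissue below it. Acadm, the medium-chain dehydrogenase, measured 73.2 CPM in fed lung and 84.8 CPM in fasting lung against 54 to 2259 CPM (median 485) in the other 14 libraries, a log2 difference of -3.25 (SE 0.32, adjusted p = 6.4e-06). Cpt2, the inner membrane carnitine transferase, had 19.8 CPM fed and 20 CPM fasting and a difference of -3.06, and Hadha, of the trifunctional protein, 140.2 CPM fed and 150.4 CPM fasting and -2.36. The exception was Cpt1a, the rate-setting transferase, at 137 CPM fed and 255 CPM fasting with a difference of -0.07 (adjusted p = 0.85). The regulators of these pathways were low too: 13 of 14 were lower than the mean, among them Ppargc1a, a coactivator of mitochondrial biogenesis (12.3 CPM fed and 12.8 CPM fasting, -2.34), its relative Ppargc1b (3.99 CPM fed and 2.83 CPM fasting, -3.38) and the fatty acid receptor Ppara (6.12 CPM fed and 6.74 CPM fasting, -3.02). Nr1h3, the oxysterol receptor, was called lower at -0.53 but had a difference of 0.10 with total counts. All 18 genes of branched-chain amino acid breakdown were lower than the mean (17 with total counts), with a median of -1.76 and -2.60 for Bckdha, a subunit of the committing dehydrogenase. Their sums were 845 and 910.2 CPM in lung and 615 and 601 CPM in spleen, again the lower tissue.

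**Figure D5:**
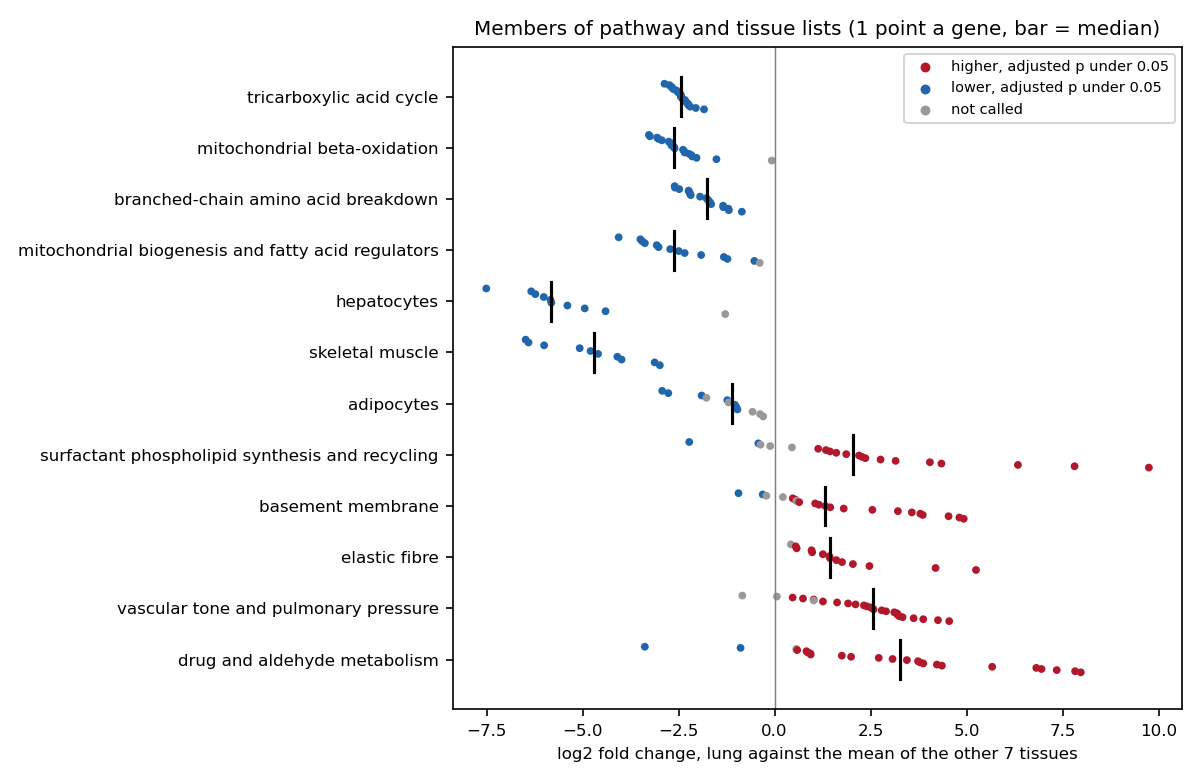
Each point is a member of a pathway or tissue list, placed by its fitted log2 difference between lung and the mean of the other 7 tissues, with red for higher, blue for lower and grey for not called, and the bar is the median. The medians of the oxidative and hepatocyte lists lie left of 0 and those of the surfactant and vascular tone lists right of it. Fitted values of genes with a tissue at 3 counts or fewer depend on the prior count of the fit.

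Marker genes of the other organs were checked in lung in the same way. Hepatocyte genes were lower than each tissue for 7 of 10, 6 with total counts, and summed to 19 CPM in fed and 14.7 CPM in fasting lung, under the 26.7 CPM of the next lowest library. Albumin (Alb) was at 7.62 CPM fed and 1.16 CPM fasting, with 7.57 CPM the lowest value elsewhere. All 10 skeletal muscle genes were lower than the mean, and their sum in lung (11.9 and 13.1 CPM) was near that in kidney (12.4 and 8.73 CPM) and spleen (13.2 and 8.95 CPM). Adipocyte genes were lower for 7 of 12 (background 23.6%), or for 3 with total counts, where 2198 of all 23580 genes tested were lower. The number was also smaller with either lung library left out. A total of 214 genes had 3 counts or fewer in both lung libraries but at least 10 CPM in both libraries of another tissue: 123 in liver, 62 in kidney, 24 in muscle and 4 to 6 in each of the others.

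Mouse pulmonary veins are known to carry a sheath of atrial-type muscle, and genes of the atrium and of the ventricle were listed apart. Of 8 atrial and pulmonary vein genes, 5 were higher in lung than in each tissue, heart included, but 0 remained without the fed and 3 without the fasting lung library. The atrial light chain Myl7 was at 88.4 CPM fed and 35.5 CPM fasting in lung and 14.5 CPM fed and 0.918 CPM fasting in heart. The light chain Myl4 was at 115 CPM fed and 47 CPM fasting in lung and 18.5 CPM fed and 2.1 CPM fasting in heart, and the calcium pump regulator Sln at 24.8 CPM fed and 10.8 CPM fasting in lung and 3.54 CPM fed and 0.131 CPM fasting in heart. For all 3 both lung libraries lay above both heart libraries. These 3 genes were themselves low in heart, and how much atrium the heart libraries held was not tested. The list summed to 632 CPM fed and 253 CPM fasting in lung and 177 and 144 CPM in heart. In kidney it summed to 344 and 343 CPM, and in liver to 560 and 615 CPM. The atrial hormone Nppa was at 198 CPM fed and 27.4 CPM fasting in lung and 113 CPM fed and 119 CPM fasting in heart, so its ranges overlapped. Genes of the ventricle lay far below heart, with list sums of 77.9 and 60.1 CPM in lung against 12383 and 12427 CPM in heart. The ventricular light chain Myl2 was at 4.96 CPM fed and 5.41 CPM fasting in lung and 7701 CPM fed and 6478 CPM fasting in heart. Against the mean of the other tissues, 3 of the 6 ventricular genes were higher (background 30.6%) and 0 lower. Fewer were higher with either lung library left out. Of 9 cardiomyocyte genes shared by both chambers 7 were higher in lung than the mean (background 30.6%) and 2 lower, near the background of 23.6%. Both numbers were smaller without the fasting lung library, and none of the 9 was higher than heart. Myh6, the main cardiac heavy chain, was at 529 CPM fed and 326 CPM fasting in lung and 30766 CPM fed and 31096 CPM fasting in heart.

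Genes known from other organs near the lung were measured as well. Of 5 tested thymic genes 4 were higher than the mean (background 30.6%) and 1 was lower (background 23.6%), and 0 were higher than each tissue. Those other than Rag1 included Dntt at 13.9 CPM fed and 0.166 CPM fasting and Prss16 at 10.2 CPM fed and 0.305 CPM fasting, high in fed lung alone. Without the fed lung library Dntt's log2 difference from the mean was -0.21, in place of a fitted 5.05. Squamous keratins were the reverse, with Krt13 at 0.133 CPM fed and 11.9 CPM fasting, and 1 of 7 genes of the list had counts enough to be tested. Of 8 cartilage genes tested 3 were higher than the mean (2 without the fasting lung library, against a background of 30.6%), and the sum was 23.2 and 24.6 CPM. The kidney tubule list summed to 353 and 207 CPM in lung, of which Lrp2, the endocytic receptor megalin that some lung cells also make, was 314 and 172 CPM, and Kap, an androgen-induced kidney gene, 22.4 and 18.9 CPM. Of 5 tested thyroid and parathyroid genes 2 were higher and 1 lower than the mean, 0 higher and 0 lower without the fed lung library and 1 higher and 1 lower without the fasting one (backgrounds of 30.6% and 23.6% with all libraries), and they summed to 4.96 and 5.05 CPM. Their part in the counts above was not tested.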

How the data were processed

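Short-read RNA-Seq was measured in 16 libraries, 8 tissues under 2 treatments, each from the pooled tissue of 3 mice, with a strand-specific kit and paired reads of 100 bases. The authors deposited counts per gene for 55385 genes (GENCODE vM24 on GRCm38), not normalized, which per the labels and the study's methods came from fastp 0.23.2, FastQC 0.11.8, HISAT2 2.2.1.0 and featureCounts (Subread 2.0). The strand setting of featureCounts, and whether it took reads or pairs, is not given in the sources used here, so overlapping and antisense genes may share counts, and multi-mapping reads of near-identical copies may be lost. The deposited table also gives a gene length, used for TPM. Its 37 genes of the mitochondrial genome are listed at 0 in all libraries. Gene symbols were matched for 55144 genes. The table had no column of an authors' comparison.

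CPM was counts over the library total, and TPM was scaled to 1000000 per library. The test was edgeR 4.0.16 (R 4.3.3), glmQLFit and glmQLFTest, with TMM factors, filterByExpr by tissue and a model of tissue plus treatment over all 16 libraries, which left 7 residual degrees of freedom and a common coefficient of variation of 0.219. Contrasts were lung minus the mean of the 7 other tissues and lung minus each of them, with Benjamini-Hochberg adjustment over the 23580 genes tested and a call at adjusted p under 0.05. At an unadjusted p under 0.05 the first contrast called 13870 genes. Since pooled mice gave 1 library per tissue and treatment, p-values measure the spread between libraries and not between animals. Scripts were tested on simulated counts. Differences are log2, and errors are standard errors.

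Named genes were Scgb1a1, Sftpc, the 15 with the largest margin among genes higher than each tissue with at least 10 CPM in both lung libraries, the 15 with the lowest among genes lower than each with at least 10 CPM in all 14 others, the 3 highest by length-scaled level of each list with the 2 highest not above each tissue, the 3 highest for each tissue not exceeded, and the listed transcription factors. Other members of the lists were added for their roles. The members and the 43 lists were chosen with earlier results of these data known, so their counts are descriptions beside the background share. Promoters came from RefSeq (GRCm38.p6), matched by symbol for 149 of 212 genes. Figures were drawn with matplotlib 3.10.9. Alternatives were other scaling factors, filters, tests, model terms and thresholds, and leaving out each library or tissue. The DESeq2 version was 1.42.0. For the values with 1 lung library left out, the remaining one was assumed to vary like the other tissues. No test of fasting against fed lung was made.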

Additional observations from a re-analysis of the deposited data

How the results depend on the processing

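Library totals instead of TMM factors gave 12696 higher and 2198 lower than the mean, and 1430 higher and 96 lower than each tissue. Requiring a log2 difference above 1 gave 2630 lower than the mean and 70 lower than each. Without white adipose 1628 genes were higher and 592 lower than each of the remaining tissues, and without spleen 1656 and 925. Leaving out muscle, liver, brown adipose, heart or kidney in turn gave 980 to 1148 higher and 302 to 358 lower. Leaving out 1 library gave 5503 to 7730 genes higher than the mean, 3637 to 5721 lower, 654 to 1252 higher than each and 85 to 311 lower than each; the lowest numbers came without a lung library and 1252 without fasting white adipose. The DESeq2 Wald test gave 798 higher and 312 lower than each, 746 and 277 of them shared. The number of genes with a 4-fold margin (372) became 272 with TMM-scaled CPM, 793 with fed libraries alone and 517 with fasting libraries alone. It was 824 at 2-fold, 158 at 10-fold and 203 with a 10 CPM minimum. The number 4-fold lower (0) became 18 with fasting libraries alone, 3 with TMM-scaled CPM and 1 at 2-fold. Of 210 named genes fitted under 31 settings, 183 kept direction and call in all and 4 reversed: Nr1h3 (0.10) and C3 (0.56) with total counts, C3 without liver (0.71), Cfd without white adipose (0.84; -0.30 with all tissues), and Dntt, which ran from -0.21 without fed lung to 6.71 without fasting lung. Pcyt1a and Col14a1, list members not counted among these 4, also turned from a negative to a positive difference with total counts. The cause of these reversals was not tested. The treatment term of the model also marks the pool of mice that the tissues share, and without that term 899 genes were higher and 213 lower than each. With 1 pool per library, animal variation is not covered, and genes of few counts are limited by depth.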

Other observations

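Families were looked at after their values had been seen, and their counts are descriptions. Of 77 mitochondrial ribosomal protein genes tested, 77 were lower in lung than the mean of the other tissues, 41 were lower than exactly 6 tissues and 15 lower than each, with a median log2 difference of -1.41. With total counts 69 were lower than the mean, 9 lower than each, and the median was -0.78. Of 23 Timm and Tomm genes, which import proteins into mitochondria, 20 were lower than the mean and 6 lower than each (16 and 1 with total counts). Cytosolic ribosomal protein genes had no stable direction: 58 of 81 were lower than the mean with TMM factors, with a median of -0.35, and 3 were lower with total counts, with a median of 0.28.

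Hox genes higher in lung came from the HoxA and HoxB clusters. Of 18 tested genes of paralogue groups 1 to 7, which are expressed towards the head, 10 were higher in lung than the mean (background 30.6%). All of these were HoxA or HoxB genes. Lower were 3 of the 18 (background 23.6%), Hoxc4, Hoxc6 and Hoxd4. Groups 1 to 7 summed to 91.5 CPM in fed and 92.6 CPM in fasting lung. Of 14 tested genes of groups 8 to 13, 0 were higher than the mean by edgeR's test and 2 lower (background 23.6%), with a median log2 difference of -2.77. None reached 1 CPM in both lung libraries, with sums of 1.16 and 1.66 CPM. The mean contrast left genes uncalled that were lower than single tissues. Hoxc8 and Hoxc10 were each called lower than 5 tissues, while Hoxa9 was lower than 4 and higher than 1, and Hoxd9 lower than 4 and higher than 2. Kidney reached 52.8 CPM for Hoxa9 and 106 CPM for Hoxd8, where lung had at most 0.194 and 0.776 CPM. White adipose reached 82.1 CPM for Hoxc8, where lung had at most 0.0665 CPM. Hoxa5 was the highest Hox gene in lung at 26.8 and 23.9 CPM.

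Several genes higher than each tissue were neighbours on a chromosome. On chromosome 12, from 56488321 to 56712822 (GRCm38), 8 such genes lay in a row, among them Nkx2-1, Sfta3-ps and Pax9, most of them noncoding. Foxf1 lay in a row with Fendrr and Gm26878 on chromosome 8 (120880206 to 121088144), Bpifa1, Bpifb1 and Bpifb5 on chromosome 2 (154142880 to 154240902), Slurp1, Lypd2 and Slurp2 on chromosome 15 (74724318 to 74746693), and Ace with Ace3 and Gm9910 on chromosome 11 (105943704 to 106005443). Reads from overlapping transcripts may be shared within such rows.

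Of the genes at 3 counts or fewer in both lung libraries, 16 had at least 10 CPM in more than 1 other tissue. They included Ftcd, of histidine breakdown (422 and 464 CPM in liver), Elovl3, a fatty acid elongase (537 and 238 CPM in liver), and Hoxc6 (26.4 and 16.1 CPM in white adipose).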
